A study of Mus musculus with 8 samples.

Results

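Genes that encode secreted or membrane inhibitors and modulators of bone morphogenetic protein (BMP) and activin signalling were followed across 8 libraries of skeletal cells. The 9 genes were chosen by name, as the rows for Chrd, Chrdl1, Chrdl2, Grem1, Nog, Bambi, Twsg1, Fst and Fstl1, and all 9 were found among the 22053 rows of the deposited table. Bambi encodes a membrane protein, so the set is not wholly secreted. RNA was sequenced from 4 libraries of candidate vertebral skeletal stem cells (vSSC, from the spine) and 4 libraries of long bone skeletal stem cells (lbSSC, from femur and tibia). All cells came from wild-type mice at postnatal day 10. Each group held 2 male and 2 female libraries, and both groups were sorted for the surface phenotype CD31-TER119-CD45-Thy-6C3-CD200+CD105-. The labels call the libraries biological replicates without saying how many animals each holds, so the spread behind each p-value is that between libraries and may be partly technical.

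BMPs are secreted growth factors that bind a receptor pair on the cell surface, activate Smad proteins and thereby induce genes such as the Id family. In the skeleton they drive cartilage and bone formation, and the response depends on which ligands are free to reach the receptor. Chordin, the chordin-like proteins, noggin and gremlin bind BMPs outside the cell and block that contact, follistatin does the same mainly for activins, and the proteases of the tolloid family release BMPs by cutting chordin.

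FPKM, the unit of all levels here, counts fragments relative to the length of the transcript and to the mapped fragments in a library, which allows genes to be set beside each other per length. Each difference is a mean of log2(FPKM + 1) in vSSC minus that in lbSSC, with its SE. The added 1 makes changes at low FPKM look smaller than they were. Adjusted p-values come from limma with Benjamini-Hochberg adjustment over the 10729 genes that reached an FPKM of 1 in 4 or more libraries, and genes were called at an adjusted p under 0.05. The exact permutation test over libraries, two-sided, can go no lower than 0.0286 with 4 against 4.

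Vertebral cells carried a different mix of BMP antagonists from long bone cells. Of the 9 genes 3 were higher in vSSC (Chrdl1, Nog and Chrdl2), as were 14.3% of all genes tested, and 5 were lower (Grem1, Fst, Chrd, Fstl1 and Bambi), as were 9.17% of all genes tested. Twsg1 did not pass the test. The calls thus took in 8 of 9, beside 23.5% of all genes tested. The libraries of the sites did not overlap in any of the 9 genes, which held for 25.8% of all genes tested. The 9 genes were chosen with earlier results of these data known, so these shares describe the set and do not test it. All 9 passed the filter on low values, but Fst passed through lbSSC alone and could only lie lower in vSSC. The median difference of the 9 was -0.38, against 0.08 for all genes tested.

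**Figure D1:**
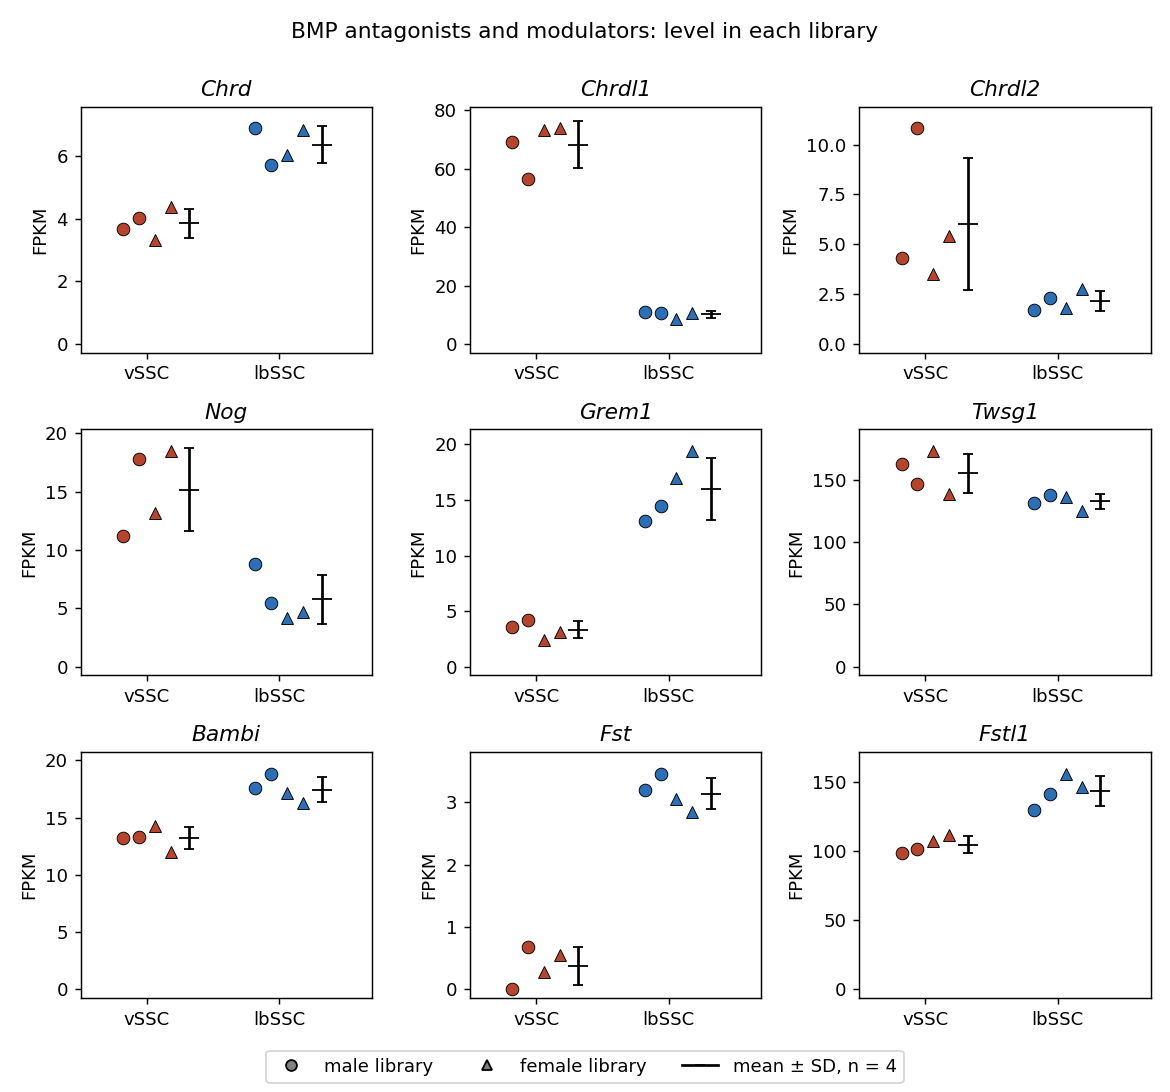
FPKM of the 9 genes (y axes start near 0 and differ between panels) in the 4 vSSC and 4 lbSSC libraries, with circles for male and triangles for female libraries and the mean ± SD of each group beside its points. In every panel the points of the 2 sites are separate, with vSSC above in Chrdl1, Chrdl2, Nog and Twsg1 and below in the other panels.

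Chrdl1 (chordin-like 1, a secreted BMP-binding protein with cysteine-rich repeats) had the largest difference of the 9. It was listed at 69.2, 56.7, 73.4 and 73.9 FPKM in vSSC replicates 1 to 4, against 11.1, 10.6, 8.44 and 10.6 FPKM in lbSSC replicates 1 to 4. The lowest vertebral library stood at 5.11 times the highest long bone library. The means were 68.3 ± 8.02 FPKM in vSSC and 10.2 ± 1.18 FPKM in lbSSC (SD, n = 4 each). The difference was 2.63 ± 0.13 with a 95% interval of 2.36 to 2.90 (adjusted p = 1.61e-07; exact permutation p = 0.0286). It was number 11 among increases over all genes tested. The gene lies on chromosome X at 143285674 to 143394262 (GRCm38, minus strand).

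Chrdl2 (chordin-like 2, the second chordin-like BMP-binding protein) moved the same way at a lower level and with more scatter. Its values were 4.32, 10.8, 3.52 and 5.44 FPKM in vSSC, against 1.71, 2.29, 1.80 and 2.78 FPKM in lbSSC. Vertebral replicate 2 stood at 1.99 times the next vertebral library, and the groups stayed apart. The difference was 1.07 ± 0.26 (adjusted p = 0.0142), with a coefficient of variation of 54.7% in vSSC, wider than that of any other member but Fst, and 23.2% in lbSSC. Chrdl2 lies on chromosome 7 at 100006172 to 100034728.

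Chrd (chordin, the founding member of the family and a substrate of the tolloid proteases) went the other way from both chordin-like genes. The vSSC libraries held 3.67, 4.01, 3.32 and 4.38 FPKM, against 6.87, 5.70, 6.03 and 6.82 FPKM in lbSSC. The groups were 1.32 FPKM apart at their nearest libraries, and the difference was -0.60 ± 0.13 (adjusted p = 0.00828). Chrd lies on chromosome 16 at 20733127 to 20742384 and overlaps Thpo on the opposite strand. The library chemistry does not mark the strand, so reads of the pair cannot be told apart. The 3 chordin family genes summed to 71.5 to 83.7 FPKM in vSSC libraries and 16.3 to 20.2 FPKM in lbSSC libraries. Chrdl1 lay far above the other family members in vSSC. In lbSSC it was at 8.44 to 11.1 FPKM, beside 5.70 to 6.87 FPKM for Chrd.

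Nog (noggin, a secreted antagonist that covers the receptor-binding sites of BMPs) was higher in vertebral cells. Values of 11.2, 17.8, 13.1 and 18.5 FPKM were listed in vSSC, against 8.80, 5.47, 4.17 and 4.67 FPKM in lbSSC. The highest long bone library, replicate 1, stayed below the lowest vertebral library, also replicate 1. The difference was 1.27 ± 0.21 (adjusted p = 0.00177). Nog is a single-exon gene on chromosome 11 at 89300638 to 89302332.

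Grem1 (gremlin 1, a secreted antagonist of BMP2, BMP4 and BMP7 and a marker used for skeletal stem cells) showed the opposite pattern. Its level was 3.56, 4.21, 2.41 and 3.09 FPKM in vSSC, against 13.1, 14.5, 16.9 and 19.4 FPKM in lbSSC. The lowest long bone library held 3.12 times the level of the highest vertebral library. The means were 3.32 ± 0.762 FPKM in vSSC and 16.0 ± 2.77 FPKM in lbSSC, and the difference was -1.98 ± 0.17 (adjusted p = 1.56e-05), number 43 among decreases over all genes tested. Grem1 lies on chromosome 2 at 113746164 to 113758646.

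Set against each other within a library, Chrdl1 and Grem1 changed places. The level of Chrdl1 was 13.5 to 30.5 times that of Grem1 in vSSC libraries and 0.498 to 0.846 times that of Grem1 in lbSSC libraries. The level of Nog was 3.16 to 5.99 times that of Grem1 in vSSC libraries and 0.241 to 0.671 times that of Grem1 in lbSSC libraries. The 5 BMP-binding antagonists Chrd, Chrdl1, Chrdl2, Nog and Grem1 summed to 92.0, 93.5, 95.8 and 105 FPKM in vSSC, against 41.6, 38.5, 37.4 and 44.3 FPKM in lbSSC. Chrdl1 alone gave 56.7 to 73.9 FPKM of the sum of these 5 in vSSC and 8.44 to 11.1 FPKM in lbSSC. All 9 genes together summed to 355.8 to 390.6 FPKM in vSSC and 323.5 to 349.4 FPKM in lbSSC. Neither sum holds the 10 further antagonists tested, of which 5 were lower and none higher in vSSC. These ratios and sums were formed after the values were seen and carry no test.

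**Figure D2:**
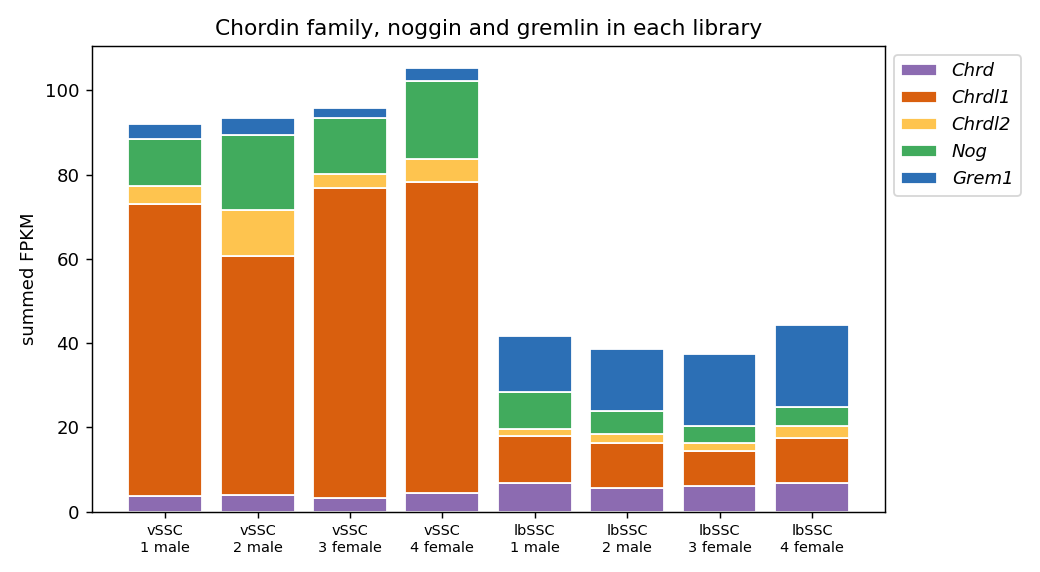
FPKM of Chrd, Chrdl1, Chrdl2, Nog and Grem1 stacked for each of the 4 vSSC and 4 lbSSC libraries, with the replicate number and sex below each bar. Chrdl1 makes up most of every vSSC bar, and Grem1 is the widest segment of every lbSSC bar.

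Grem1 and Chrd were both lower in vSSC, and their upstream sequence is shown because they are the called antagonists with an entry in the RefSeq promoter table (GRCm38.p6) whose start lies within a few bases of the annotated gene start. The table held 4 of the 9 genes, Grem1, Chrd, Fstl1 and Twsg1. Each line gives the 250 bases before the start, read 5′ to 3′ on the gene's strand, with GGCGCC, a palindromic GC-rich element, and CCAAT in capitals, both searched on either strand; the windows are chr2:113758649-113758898 (minus strand) for Grem1 and chr16:20732877-20733126 (plus strand) for Chrd.
Grem1: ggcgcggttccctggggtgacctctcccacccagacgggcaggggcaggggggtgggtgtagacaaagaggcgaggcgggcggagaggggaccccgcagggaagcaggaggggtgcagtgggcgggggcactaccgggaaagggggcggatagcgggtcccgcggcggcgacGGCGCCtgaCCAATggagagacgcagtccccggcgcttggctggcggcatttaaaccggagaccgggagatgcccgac
Chrd: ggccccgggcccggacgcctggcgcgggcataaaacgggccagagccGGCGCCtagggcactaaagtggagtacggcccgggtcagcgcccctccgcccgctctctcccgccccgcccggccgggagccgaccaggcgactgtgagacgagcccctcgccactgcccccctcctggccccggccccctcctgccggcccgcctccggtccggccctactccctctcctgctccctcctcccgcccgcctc

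Both windows were rich in G and C, at 72% for Grem1 and 78% for Chrd, against a median of 52.4% over all 32851 windows of that length. GGCGCC occurred once in each, 78 bases before the start of Grem1 and 203 bases before that of Chrd, and in 9.59% of all windows. The windows of Twsg1 and Fstl1, at 64.4% and 68% G and C, held none. The 9.59% is over windows of any G and C content, and windows as rich as those of Grem1 and Chrd were not counted apart. The GC box GGGCGG occurred 3 times before Grem1, 4 times before Chrd, 2 times before Fstl1 and 2 times before Twsg1, and in 32.7% of all windows. CCAAT occurred in Grem1 alone of the 4, and in 33.8% of all windows. The Smad box GTCT occurred 4 times before Grem1, 3 times before Fstl1, 2 times before Twsg1 and once before Chrd, and in 82.9% of all windows. These are matches of letters and do not show that a factor binds there.

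Twsg1 (twisted gastrulation, a secreted protein that binds both BMPs and chordin and can favour or block signalling) was the most abundant of the 9 in vSSC and did not pass the test. In vSSC it held 163, 147, 173 and 139 FPKM, against 131, 138, 136 and 125 FPKM in lbSSC. The groups touched without overlapping, with 138.7 FPKM in the lowest vertebral library and 138.2 FPKM in the highest long bone library. The difference was 0.22 ± 0.10 with a 95% interval of 0.00 to 0.44 (adjusted p = 0.131; exact permutation p = 0.0286), and it was 0.01 (adjusted p = 0.963) after quantile normalization. Twsg1 lies on chromosome 17 at 65923066 to 65951187.

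Bambi (a membrane pseudoreceptor that lacks the kinase domain and dampens BMP and activin receptors) was lower in vertebral cells by a small margin. Its values were 13.2, 13.3, 14.3 and 12.0 FPKM in vSSC, against 17.6, 18.8, 17.1 and 16.2 FPKM in lbSSC. The groups lay 1.94 FPKM apart at their nearest libraries, and the difference was -0.38 ± 0.11 (adjusted p = 0.0277). The call was lost in 6 of the 8 fits that each left out 1 library, with adjusted p from 0.0518 without vSSC replicate 4 to 0.0685 without lbSSC replicate 2. Those without vSSC replicates 1 and 2 and lbSSC replicates 1 and 3 lay between. Bambi lies on chromosome 18 at 3507957 to 3516404.

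Fst (follistatin, which binds activins tightly and BMPs more weakly) was near the bottom of the scale in vertebral cells. The table lists it at 0, 0.685, 0.285 and 0.552 FPKM in vSSC, against 3.19, 3.46, 3.06 and 2.85 FPKM in lbSSC. No vertebral library reached 1 FPKM and each long bone library did. The difference was -1.61 ± 0.18 (adjusted p = 0.000124), and since the low group lies under the pseudocount its size depends on that choice, at -3.11 with a pseudocount of 0.1 and -4.09 with 0.01. Fst lies on chromosome 13 at 114452262 to 114458730 and overlaps the antisense gene Gm47040, whose reads cannot be told apart from its own.

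Fstl1 (follistatin-like 1, a secreted glycoprotein reported to bind BMP4) was abundant at both sites and lower in vertebral cells. It was listed at 98.2, 101, 107 and 112 FPKM in vSSC, against 129.7, 141, 156 and 146 FPKM in lbSSC. The difference was -0.45 ± 0.10 (adjusted p = 0.00778). Together Twsg1 and Fstl1 made up 68.0% to 71.7% of the summed FPKM of the 9 genes in vSSC libraries and 80.7% to 83.5% in lbSSC libraries. Fstl1 lies on chromosome 16 at 37776873 to 37836514.

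**Figure D3:**
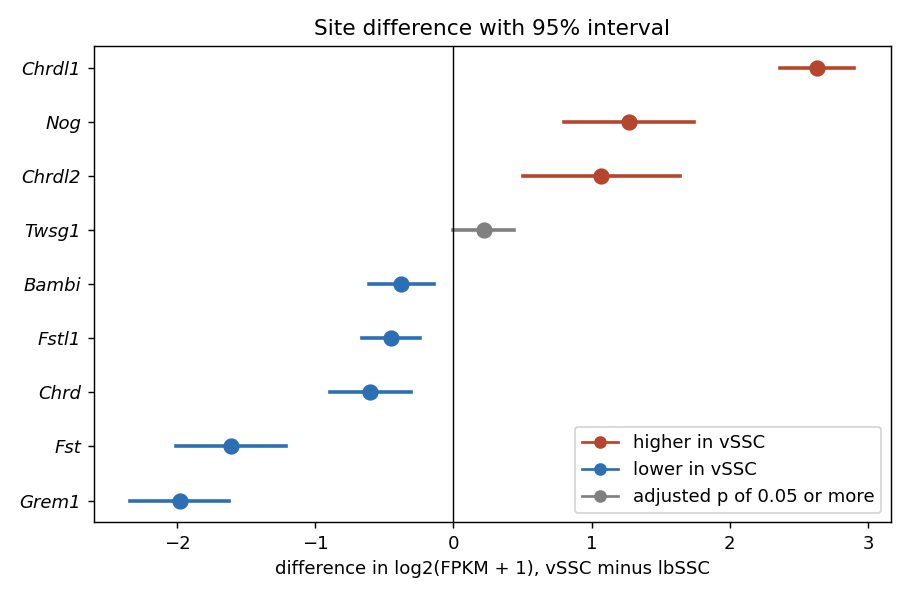
Difference in log2(FPKM + 1), vSSC minus lbSSC, for each of the 9 genes, with points for the limma estimate and lines for its 95% interval over 4 vSSC and 4 lbSSC libraries. Chrdl1 lies farthest to the right at 2.63 and Grem1 farthest to the left at -1.98, and the interval of Twsg1 reaches 0.

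The share of ribosomal protein genes in the summed FPKM was 18.8% and 19.2% in vSSC replicates 1 and 3, 16.2% and 17.2% in the other vSSC libraries and 14.0% to 16.3% in lbSSC libraries. In a fit of 2 vSSC libraries against 4 lbSSC libraries, without vSSC replicates 1 and 3, 3 of the 9 genes were higher and 2 lower. Of all 10729 genes tested, 503 were higher and 592 lower there, against 1534 and 984 with all 8 libraries. Chrdl1, Nog, Chrdl2, Grem1 and Fst kept their calls, while Chrd (-0.50, adjusted p = 0.0616), Fstl1 (-0.42, adjusted p = 0.0672) and Bambi (-0.43, adjusted p = 0.0652) did not. In a fit with the ribosomal share as a covariate, 2 of the 9 genes were higher and 2 lower, beside 239 higher and 366 lower of all 10729. There Nog (1.25, adjusted p = 0.0757), Chrd (-0.45, adjusted p = 0.257), Fstl1 (-0.30, adjusted p = 0.189) and Bambi (-0.54, adjusted p = 0.0566) missed the threshold, and Chrdl1, Chrdl2, Grem1 and Fst passed it. The part of the ribosomal share in these differences was not tested.

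The order of levels differed between the sites. In all vSSC libraries the order opened with Twsg1, then Fstl1, then Chrdl1. Nog and Bambi came next in either order, followed by Chrdl2, by Chrd and Grem1 in either order, and by Fst last. In lbSSC libraries Fstl1 and Twsg1 shared the first places in either order, Bambi and Grem1 the next, and Chrdl1 came after these in all 4. Chrd and Nog exchanged places below it, followed by Fst and, last in every lbSSC library, Chrdl2. Differences between the genes of a pair that exchanged places were not tested.

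No member passed the test between the sexes. With site as a covariate, the male minus female difference of the 9 genes lay between -0.14 for Fstl1 and 0.22 for Chrdl2 (adjusted p from 0.662 to 0.994), where 0.0466% of all genes tested were called. None of the 9 reached an unadjusted p under 0.05. The interaction of site and sex was called in 0 of 10729 genes by limma, while 405 had an unadjusted p under 0.05, with Grem1 the one member among them. Its site difference was -1.60 in males and -2.36 in females, an interaction of 0.76 ± 0.27 (unadjusted p = 0.0188, adjusted p = 0.981).

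Other genes of the pathway were read from lists by role. Of 18 further antagonists 10 were tested, and 5 were lower and none higher in vSSC (median -0.40), where 9.17% of all genes tested were lower and 14.3% higher (median 0.08). Smoc1, a secreted calcium-binding protein that inhibits BMP signalling in Xenopus, was at 7.79 ± 1.01 FPKM in vSSC and 45.7 ± 8.27 FPKM in lbSSC (a difference of -2.40 ± 0.15, adjusted p = 1.02e-06). Its relative Smoc2 was at 117 ± 21.9 FPKM in vSSC and 310 ± 16.1 FPKM in lbSSC (a difference of -1.42 ± 0.13, adjusted p = 2.92e-05). Crim1, a membrane protein with chordin-type repeats, differed by -1.06 ± 0.14 (adjusted p = 0.000383) and Bmper, a chordin-repeat protein that binds BMPs, by -0.49 ± 0.13 (adjusted p = 0.022). Sostdc1 was called as reported but missed the threshold in 14 of 20 alternatives, and Bmper did so in 5 of 21. Nbl1, a secreted BMP antagonist of the gremlin family, did not pass (-0.31 ± 0.11, adjusted p = 0.0563), and Sost and Cer1 were among those under the filter.

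Both tested chordin proteases were lower in vSSC, as were 9.17% of all genes tested. Bmp1, which cuts chordin and procollagen, was at 29.7 ± 2.35 FPKM in vSSC and 45.7 ± 3.20 FPKM in lbSSC (a difference of -0.61 ± 0.10, adjusted p = 0.00184). Tll1, a tolloid-like protease, was at 1.50 ± 0.254 FPKM in vSSC and 4.71 ± 0.728 FPKM in lbSSC (a difference of -1.19 ± 0.15, adjusted p = 0.000266). Tll2 was listed at 0 throughout. The call of Bmp1 was lost when the ribosomal share entered as a covariate (adjusted p = 0.0709, and at most 0.0709 over all alternatives).

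Among the BMP and GDF ligands, 9 of 17 were tested, 1 higher and 4 lower (median -0.27). Over all genes tested 14.3% were higher and 9.17% lower (median 0.08). Bmp4 differed by -1.70 ± 0.16, Gdf6 by -1.33 ± 0.17, Gdf5 by -1.14 ± 0.18 and Bmp5 by -1.09 ± 0.11, with adjusted p from 3.94e-05 to 0.00111. Gdf6 passed the filter through lbSSC alone. Gdf10, a relative of Bmp3, was higher, at 110 ± 17.1 FPKM in vSSC and 59.7 ± 13.9 FPKM in lbSSC. Its difference was 0.89 ± 0.17 (adjusted p = 0.00364). Bmp2 was at 21.9 ± 6.60 FPKM in vSSC and 20.8 ± 4.86 FPKM in lbSSC and Bmp3, Bmp6 and Bmp7 also did not pass. The ligand list summed to 161 to 211 FPKM in vSSC libraries and 159 to 193 FPKM in lbSSC libraries, which overlap. Gdf10 alone gave 89.3 to 130 FPKM of this sum in vSSC and 43.7 to 76.7 FPKM in lbSSC. A sum without Gdf10 was not formed, so the overlap does not describe the other ligands. Of the 5 activin and inhibin subunits only Inhba was tested, and it was lower (-0.74 ± 0.20, adjusted p = 0.0198). Its call was lost in 4 of 20 alternatives.

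Of 11 tested receptors and coreceptors 1 was higher and none lower (median -0.25), near the 14.3% and 9.17% over all genes tested. Bmpr1b, a BMP type I receptor, was at 4.24 ± 0.281 FPKM in vSSC and 0.604 ± 0.258 FPKM in lbSSC (a difference of 1.72 ± 0.16, adjusted p = 2.83e-05) and passed the filter through vSSC alone. Of 10 Smad and Smurf genes 1 was lower, Smad3, which carries activin and TGF-beta signals (-0.72 ± 0.15, adjusted p = 0.00595), again near the share over all genes. Smad3 missed the threshold with the ribosomal share as a covariate and without vSSC replicates 1 and 3 (adjusted p at most 0.418). Of 9 genes known as BMP targets 4 were higher and 2 lower (median 0.23). Id1 was at 402 ± 45.5 FPKM in vSSC and 235 ± 28.4 FPKM in lbSSC (a difference of 0.77 ± 0.12, adjusted p = 0.00109), and Atoh8, a basic helix-loop-helix factor, was at 9.80 ± 2.02 FPKM in vSSC and 5.65 ± 0.355 FPKM in lbSSC (a difference of 0.68 ± 0.15, adjusted p = 0.01). Dlx5 (0.53 ± 0.15), Id2 (0.35 ± 0.11), Msx1 (-0.73 ± 0.24) and Msx2 (-0.59 ± 0.18) lost their calls in 9 to 13 of 20 or 21 alternatives each. Id1 missed the threshold with the ribosomal share as a covariate (adjusted p = 0.0549), a fit in which 1 of the 9 targets was called.

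**Figure D4:**
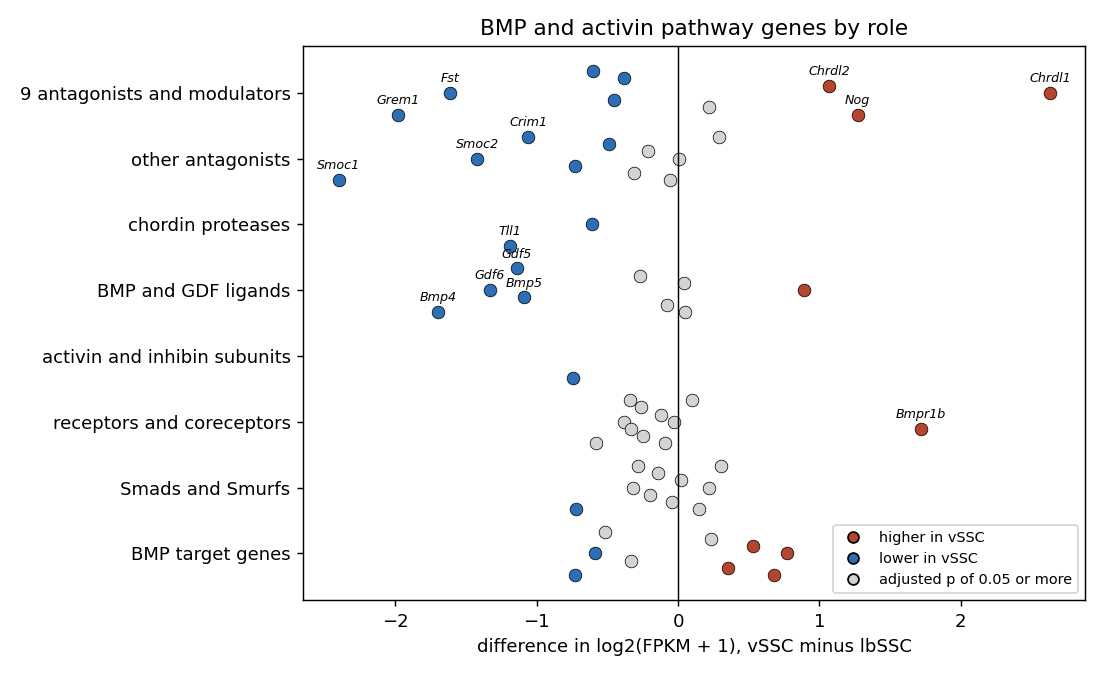
Difference in log2(FPKM + 1), vSSC minus lbSSC, of every tested gene of the BMP and activin lists, 1 row per role, with called genes in colour and called genes of at least 1 in size named; the height within a row has no meaning. The 9 antagonists and modulators spread from -1.98 to 2.63, while the further antagonists that were called all lie to the left of 0.

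Genes whose levels ran most like those of each member were listed by Pearson's r of log2(FPKM + 1) over the 8 libraries. This is a description over libraries that fall into 2 separate sites, so a shared site difference alone gives a high r. For Chrdl1 they were Hoxb6 (r = 0.994) and Hoxb7 (r = 0.993), homeobox genes of trunk position, and for Grem1 the procollagen protease Adamts2 (r = 0.995) and the fibrillar collagen Col5a2 (r = 0.993). Nog ran most like the FGF receptor Fgfr3 (r = 0.986) and Ehd3 (r = 0.983), Chrdl2 like Atl1 (r = 0.973) and Fam189a1 (r = 0.972), and Twsg1 like Mrpl48 (r = 0.990) and Ptpn2 (r = 0.982). Chrd ran most like the transcription factor Irf1 (r = 0.993) and Zc3h11a (r = 0.984), and Fstl1 like Gab1 (r = 0.988) and C1rl (r = 0.985). Fst ran most like the chemokine Cxcl14 (r = 0.988) and the protease Pappa2 (r = 0.987), and Bambi like the cathepsin Ctsk (r = 0.982) and the gap junction gene Gja1 (r = 0.981). With each site centred on its own mean, the closest gene to Chrdl1 was Rspo3 (r = 0.967) and to Grem1 Abi3bp (r = 0.969). Each is the highest r picked from many genes over 8 libraries, which alone can give a high r. For Nog the closest was Malsu1, also at r = 0.967, and none of these matches was tested.

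FPKM sums ran from 517314 to 571869 in vSSC libraries and from 460302 to 521489 in lbSSC libraries, read totals were not used here, and no counting error can be given. Of all calls 60.9% were higher in vSSC on the deposited scale. That share was 49.5% with median-of-ratios scaling, 49.4% with quantile normalization and 42.4% with all sums made equal. The last moved the median of all genes tested to -0.044, against 0.084 as deposited, and each member kept its direction under all 3 scalings. Among the sorting markers, Cd200 was at 85.1 to 133 FPKM in vSSC and 84.2 to 143 FPKM in lbSSC, and Pecam1, Ptprc, Thy1, Enpep and Eng were at most at 0.949 FPKM in vSSC and 1.76 FPKM in lbSSC. The cartilage genes Col2a1, Acan, Sox9, Comp and Col9a1 were abundant at both sites, summing to 11600 to 20700 FPKM in vSSC and 14900 to 25100 FPKM in lbSSC, and none of the 5 was called.

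Markers of some other cell types moved with site. Over all genes tested 14.3% were called higher and 9.17% lower in vSSC. The myeloid list was higher, with 4 of 7 genes called and sums of 221 to 367 FPKM in vSSC and 22.9 to 101 FPKM in lbSSC, although the gate should remove these cells. Also higher was the Schwann cell list, with 3 of 4 called and sums of 9.60 to 24.5 FPKM in vSSC and 1.28 to 1.90 FPKM in lbSSC. The marrow stroma list was lower, with 3 of 4 called and sums of 1.83 to 6.50 FPKM in vSSC and 10.4 to 17.0 FPKM in lbSSC, as were 2 of 3 osteoclast genes (sums of 54.9 to 77.5 FPKM in vSSC and 107 to 127 FPKM in lbSSC). Osteoblast genes split, with 1 of 5 higher and 2 lower, 1 of 3 tendon genes was lower and 1 of 4 muscle genes higher. None of the 3 synovium and 4 perivascular genes was called, with some of both lists under the filter. Endothelial genes summed to at most 0.287 FPKM in vSSC and 0.178 FPKM in lbSSC, and the notochord gene Noto was listed at 0 in all libraries. Erythroid genes, likewise from cells that the gate should remove, summed to 3800 to 5350 FPKM in vSSC and 4240 to 8740 FPKM in lbSSC, with 1 of 6 called, lower. Their part in the differences of the 9 genes was not tested, and in these bulk libraries fewer cells of a type and less RNA per cell cannot be told apart.

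**Figure D5:**
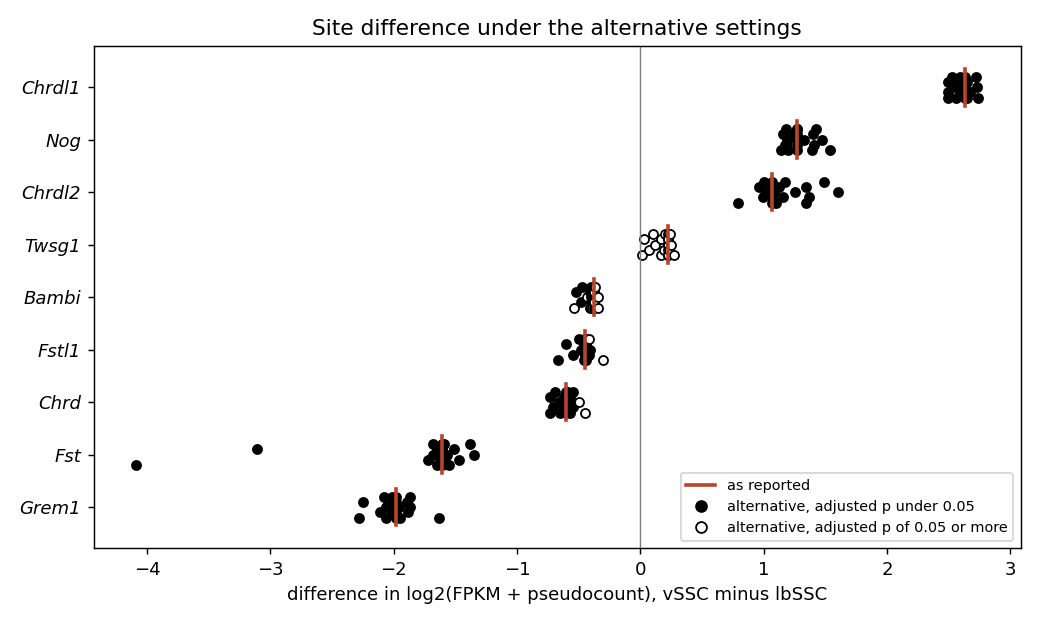
Difference in log2(FPKM + pseudocount), vSSC minus lbSSC, for each of the 9 genes as reported (red line) and under each alternative (points; filled where the adjusted p was under 0.05). No point crosses 0, the points of Twsg1 are all open, and the 2 far points of Fst are the fits with smaller pseudocounts.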

How the data were processed

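Expression was read from 1 deposited table of FPKM per protein-coding gene with 22053 rows, made by the authors with bcl2fastq 2.19, STAR 2.5.2 and Cufflinks 2.1.1 on GRCm38, per the submitters' processing notes; the annotation release and counting settings were not stated there. Per the labels' protocols the kits were SMART-Seq v4 and Nextera XT, which do not mark the strand. Starts lay 1 below GENCODE M21 in 82.1% of matched genes, so 1 was added. Values were transformed to log2(FPKM + 1) and the 10729 genes that reached an FPKM of 1 in 4 or more libraries were tested with limma 3.58.1 in R 4.3.3 (empirical Bayes with a variance trend), site over all 8 libraries with no covariate, sex with site as a covariate, and their interaction. The script was tested on simulated data. The 9 genes and the pathway and marker lists were chosen with earlier results of these data known. The text names all 9 members, up to 4 called genes of each pathway list with the smallest p (Sostdc1, Msx1, Msx2 and genes that did not pass were added after their values were seen), and 2 genes of most like pattern per member. Acta1 and Hjv, both listed, were not analysed here. Other settings tried were smaller pseudocounts (0.1 and 0.01), no filter on low values or one at 5 FPKM, 3 other scalings, no variance trend, library weights, sex, the replicate number or the ribosomal protein share (79 genes) as covariates, and libraries left out.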

Additional observations from a re-analysis of the deposited data

How the results depend on the processing

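Every site difference of the 9 genes kept its direction under all alternatives. Chrdl1 (2.49 to 2.74), Grem1 (-2.28 to -1.63), Chrdl2 (0.79 to 1.60) and Fst (-4.09 to -1.35) stayed past the threshold in every alternative that tested them, and Twsg1 (0.01 to 0.27) in none. With the filter at an FPKM of 5, Chrdl2 and Fst were not tested. With the ribosomal share as a covariate the values of the lost calls were -0.45 for Chrd, 1.25 for Nog, -0.54 for Bambi and -0.30 for Fstl1, and 605 genes were called over the table in place of 2518. Without vSSC replicates 1 and 3 together they were -0.50 for Chrd, -0.43 for Bambi and -0.42 for Fstl1, with 1095 genes called. With single libraries left out, Bambi ran from -0.41 to -0.34 and the count over all genes from 1534 without lbSSC replicate 3 to 2991 without vSSC replicate 4. The cause of these changes was not tested. Over all alternatives the adjusted p of Bambi ran from 0.00252 to 0.0685, of Chrd from 0.00496 to 0.257, of Fstl1 from 0.00221 to 0.189 and of Nog from 0.00045 to 0.0757. The labels do not say whether the replicate numbers pair the libraries, and pairing was not tested. The deviations of libraries with the same number correlated at 0.257, -0.088, -0.064 and 0.435 for numbers 1 to 4. The best partner had the same number for 1 and 4 and another number for 2 and 3. With the number as a replicate block 3194 genes were called and no call of the 9 changed. In the sex and interaction fits none of the 9 passed under any of the 15 alternatives run. The FPKM table gives no read totals, so precision rests on 4 libraries per site.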
